A study of Mus musculus with 12 samples.

Results

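The cell cycle and DNA replication genes described here are 46 mouse genes that were chosen by symbol: cyclins, cyclin-dependent kinases (CDKs), mitotic kinases and motors, the replicative helicase, the sliding clamp and enzymes of nucleotide supply. Of these, 42 had a row among the 14712 genes of the table, and Ccnb1, Cdca8, Bub1 and Tk1 are not analysed here. The 42 comprised 10 of 13 listed genes of mitotic entry and its cyclin-CDK switch, 13 of 13 of the spindle, centromere and chromosome structure, 10 of 11 of replication, and 9 of 9 of G1 and the G1/S step.

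Bulk RNA sequencing covered articular cartilage and growth plate cut by laser from frozen knees of mice aged 3 months, with 12 libraries, 6 per tissue. Controls carried floxed alleles without Cre, either Sox9fl/fl or Sox8fl/fl Sox9fl/fl. Mutants carried the same floxed alleles with AcanCreERT2/+, an inducible Cre driven from the Acan (aggrecan) locus and so present in cells that express aggrecan. Each tissue had 3 controls and 3 mutants in 3 sets: Sox9 at day 7, Sox9 at day 14, and Sox8 Sox9 at day 14. The sources used here do not say from which event the days run, and the column headers, unlike the labels, name a reporter allele, R26tdT, for the Sox9 sets. A combination of genotype, day and tissue was sequenced in 1 library, so the error of every comparison includes the spread of the compared difference between sets. Shifts of level that the libraries of a set share are fitted as blocks. Which regions share an animal is not labelled, so p-values cover the spread among libraries only. Those of the mutant effects are too small where regions share an animal. The tissue comparisons and the interaction fit each genotype and day as a block, which takes up what regions of an animal share. Values of a group are given throughout in the order Sox9 day 7, Sox9 day 14, Sox8 Sox9 day 14.

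A dividing cell passes through G1, where D-type cyclins activate Cdk4 and Cdk6 and thereby release E2F factors from the retinoblastoma protein family. S phase then copies the DNA with the MCM helicase, and a later wave of genes (cyclin B, Plk1, the Aurora kinases, Mki67) is active around mitosis. In growth plate cartilage, columns of proliferating chondrocytes divide and so lengthen the bone, whereas chondrocytes of adult articular cartilage rarely divide.

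Levels are the authors' normalised RPKM, in which reads are scaled to transcript length and to the library, with 1 as the lowest listed value and 1299 to 2823 genes per library at it. Read depth is not known from the table. Chondrocyte markers (13 of 14 listed present) summed to 4435 to 10000 in articular controls, 2156 to 2566 in articular mutants, 30857 to 48451 in growth plate controls and 2110 to 6959 in growth plate mutants. Sox9 was 408, 349 and 213 in articular controls against 304, 309 and 282 in articular mutants. In the library labelled as articular Sox8 Sox9 mutant it was thus higher than in its control, against that label, and every later value of the Sox8 Sox9 articular mutant is that of the library so labelled. In growth plate Sox9 was 314, 335 and 308 in controls and 236, 148 and 36.0 in mutants. Sox8 was lower in the mutant in each of the 6 pairs. Differences are of log2(value + 1), so that changes of low genes are understated. A gene was called at a limma, Benjamini-Hochberg adjusted p under 0.05 over all 14712 genes.

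Across the 42 genes, the articular control of the Sox9 day 7 set stood apart. It was the lowest or tied lowest library for 30 of the 42 genes, and 20 of them lay at the lowest listed value there. The articular control of the Sox8 Sox9 set had 8 genes at that value, and no other library had more than 3. The growth plate control of the Sox9 day 7 set was the highest library for 22 of the 42 genes. In bulk tissue, fewer cells of a type and less RNA per cell cannot be told apart, for these and all later values.

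**Figure D1:**
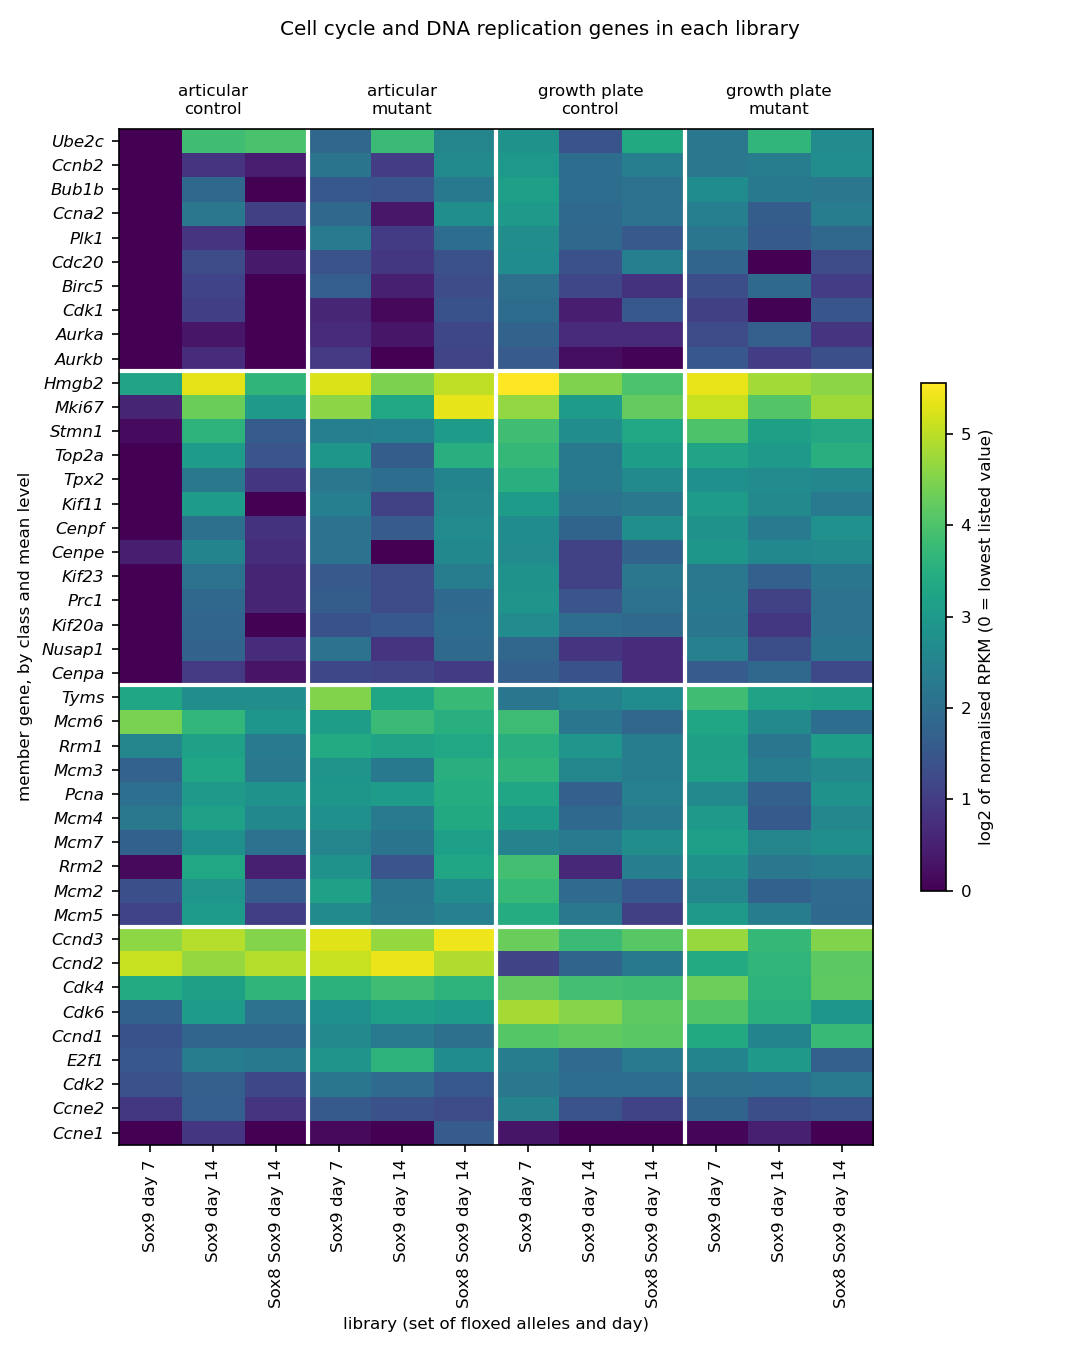
Level of each of the 42 genes (rows, by class and mean level) in each of the 12 libraries (columns, by tissue and genotype), as log2 of normalised RPKM, where 0 is the lowest listed value. The articular control of the Sox9 day 7 set is dark in the top 2 blocks of rows, the mitotic and the spindle genes, while Ccnd2 is bright in the 6 articular libraries and dark in the 3 growth plate controls.

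Promoters of 5 genes are shown, since members of a cell cycle phase are known to share short promoter motifs. RefSeq promoter windows on GRCm38.p6, 250 bases before to 50 after the start, were found for 33 of the 42 genes in 36 windows. Ccnb2, Plk1 and Mki67 are printed for the mitotic wave, Mcm6 for replication, and Cdk6 for G1. Capitals mark letters of 3 short motifs on either strand, searched as CCAAT (the CCAAT box), TTTGAA or TTCGAA (the cell cycle homology region, CHR) and TTCGCGC or TTGGCGC or TTCCCGC (cores of E2F sites). The windows are chr9:70421505-70421804 (minus strand) for Ccnb2, chr7:122159185-122159484 (plus) for Plk1, chr7:135716330-135716629 (minus) for Mki67, chr1:128359656-128359955 (minus) for Mcm6 and chr5:3343643-3343942 (plus) for Cdk6.
Ccnb2: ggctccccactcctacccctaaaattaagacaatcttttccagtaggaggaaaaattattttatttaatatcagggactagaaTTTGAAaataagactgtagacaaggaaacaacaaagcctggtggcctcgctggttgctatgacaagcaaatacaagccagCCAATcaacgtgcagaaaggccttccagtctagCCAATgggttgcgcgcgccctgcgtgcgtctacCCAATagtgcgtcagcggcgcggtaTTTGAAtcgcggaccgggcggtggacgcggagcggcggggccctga
Plk1: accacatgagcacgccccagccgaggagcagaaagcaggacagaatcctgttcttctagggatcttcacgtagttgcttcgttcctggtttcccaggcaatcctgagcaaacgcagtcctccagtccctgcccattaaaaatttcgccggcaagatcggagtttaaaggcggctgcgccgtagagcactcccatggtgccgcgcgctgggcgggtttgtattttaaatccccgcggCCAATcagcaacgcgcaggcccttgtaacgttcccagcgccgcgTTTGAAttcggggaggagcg
Mki67: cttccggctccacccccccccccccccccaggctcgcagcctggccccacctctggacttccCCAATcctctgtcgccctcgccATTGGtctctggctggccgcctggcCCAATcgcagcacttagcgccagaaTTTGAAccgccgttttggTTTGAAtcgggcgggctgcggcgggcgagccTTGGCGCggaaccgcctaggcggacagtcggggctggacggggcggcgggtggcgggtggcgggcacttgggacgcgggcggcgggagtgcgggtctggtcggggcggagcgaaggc
Mcm6: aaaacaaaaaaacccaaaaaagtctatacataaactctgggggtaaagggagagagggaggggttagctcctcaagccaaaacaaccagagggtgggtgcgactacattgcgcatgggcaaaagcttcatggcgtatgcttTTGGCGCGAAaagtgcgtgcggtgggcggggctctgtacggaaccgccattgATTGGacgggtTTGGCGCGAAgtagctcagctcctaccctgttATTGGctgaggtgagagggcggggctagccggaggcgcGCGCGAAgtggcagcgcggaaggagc
Cdk6: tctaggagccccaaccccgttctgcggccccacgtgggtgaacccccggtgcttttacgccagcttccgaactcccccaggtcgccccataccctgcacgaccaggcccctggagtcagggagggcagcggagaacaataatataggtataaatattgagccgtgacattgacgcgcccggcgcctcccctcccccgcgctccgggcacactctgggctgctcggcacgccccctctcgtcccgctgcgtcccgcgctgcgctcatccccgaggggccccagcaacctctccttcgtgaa

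The Ccnb2 window holds 3 CCAAT boxes and 2 CHR matches, and that of Plk1 holds 1 of each. The Mki67 window holds 3 CCAAT boxes, 2 CHR matches and 1 E2F core. The Mcm6 window holds 2 CCAAT boxes and 5 E2F cores, some of which share letters, and no CHR. The Cdk6 window holds none of these letters.

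Over the classes, a CHR was present in 7 of 8 mitotic entry windows and 9 of 11 spindle and chromosome windows, against 2 of 10 replication and 0 of 7 G1 windows and 19.2% of all 32851 promoter windows. A CCAAT box was present in 7 of 8, 10 of 11, 9 of 10 and 2 of 7 windows in the same order, against 37.4% of all windows. An E2F core was present in 6 of 10 replication windows, 1 of 8 mitotic entry, 1 of 11 spindle and 1 of 7 G1 windows, against 8.07% of all. Both a CCAAT box and a CHR were found in 16 of the 19 mitotic and spindle windows (84.2%) and in 7.52% of all windows. Matches of different motifs overlapped in 2 pairs, both in Mcm7, where a CCAAT box shares letters with 2 E2F cores. These counts are of windows and not of genes: Prc1, Mcm7 and Ccnd3 have 2 windows each, and those of Prc1 overlap. A match is a description of letters and not a bound site.

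In the comparison of the control tissues, which asks how the adult growth plate and articular cartilage differ without Cre, Ccnd1 and Cdk6 were higher and Ccnd2 lower in growth plate, and 2 mitotic genes, Ccnb2 and Plk1, were higher there. The related Ccnd3 and Cdk4 were not called. With limma, 4 of the 42 genes were called higher in growth plate (4.26% of all genes) and 1 lower (8.63% of all genes). The median difference of the 42 genes, growth plate minus articular, was 0.56 against −0.10 over all genes, and 34 of 42 lay above 0 (81.0% against 41.5% of all genes). Without the Sox9 day 7 control pair the median was 0.13 and 23 of 42 lay above 0, and without the Sox9 day 14 control pair they were 0.96 and 38 of 42.

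Ccnd1, the cyclin D1 gene (chromosome 7, 144929931 to 144939925, mm10), was 2.64, 3.50 and 3.49 in articular controls. In growth plate controls it was 17.2, 18.5 and 17.7. The 3 growth plate values lay within a narrow band and far above all 3 articular ones, a 5.55-fold ratio of means and a log2 difference of 2.17 ± 0.24 SE (limma, Benjamini-Hochberg adjusted p = 0.000713).

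Ccnd2, the cyclin D2 gene (chromosome 6, 127125162 to 127152193), was 34.0, 25.6 and 30.8 in articular controls. In growth plate controls it was 2.21, 3.45 and 4.72. It ran opposite to Ccnd1, with no overlap of the groups, and fell by 2.83 ± 0.26 on the log2 scale from articular cartilage to growth plate (limma, Benjamini-Hochberg adjusted p = 0.000259), an 8.71-fold ratio of means.

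Ccnd3, the cyclin D3 gene (chromosome 17, 47505051 to 47599691), was 24.4, 30.9 and 23.1 in articular controls and 19.6, 13.8 and 17.4 in growth plate controls. The groups did not overlap, but the difference of −0.60 ± 0.20 was not called (limma, Benjamini-Hochberg adjusted p = 0.0919). On this per-length scale the order of the D-type cyclins by mean level in articular controls was Ccnd2 (30.1 ± 4.21 SD), Ccnd3 (26.2 ± 4.15) and Ccnd1 (3.21 ± 0.497; n = 3 libraries each). In growth plate controls it was Ccnd1 (17.8 ± 0.675), Ccnd3 (16.9 ± 2.96) and Ccnd2 (3.46 ± 1.26). The upper 2 genes of each order overlapped in their libraries, while the lowest stood clear of both.

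Cdk6, a kinase partner of the D-type cyclins (chromosome 5, 3341485 to 3531008), was 3.33, 8.33 and 4.24 in articular controls. In growth plate controls it was 27.9, 23.5 and 18.1. The lowest growth plate value exceeded the highest articular one, with a log2 difference of 2.0 ± 0.30 (limma, Benjamini-Hochberg adjusted p = 0.00314). This call was lost in the fit of the 6 control libraries alone (limma, Benjamini-Hochberg adjusted p = 0.0577). Cdk4, the other kinase of these cyclins (chromosome 10, 127063534 to 127067920), was 10.5, 8.96 and 12.4 in articular and 18.8, 15 and 14.4 in growth plate controls. Its groups did not overlap either, but the difference of 0.56 ± 0.22 was not called (limma, Benjamini-Hochberg adjusted p = 0.153).

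**Figure D2:**
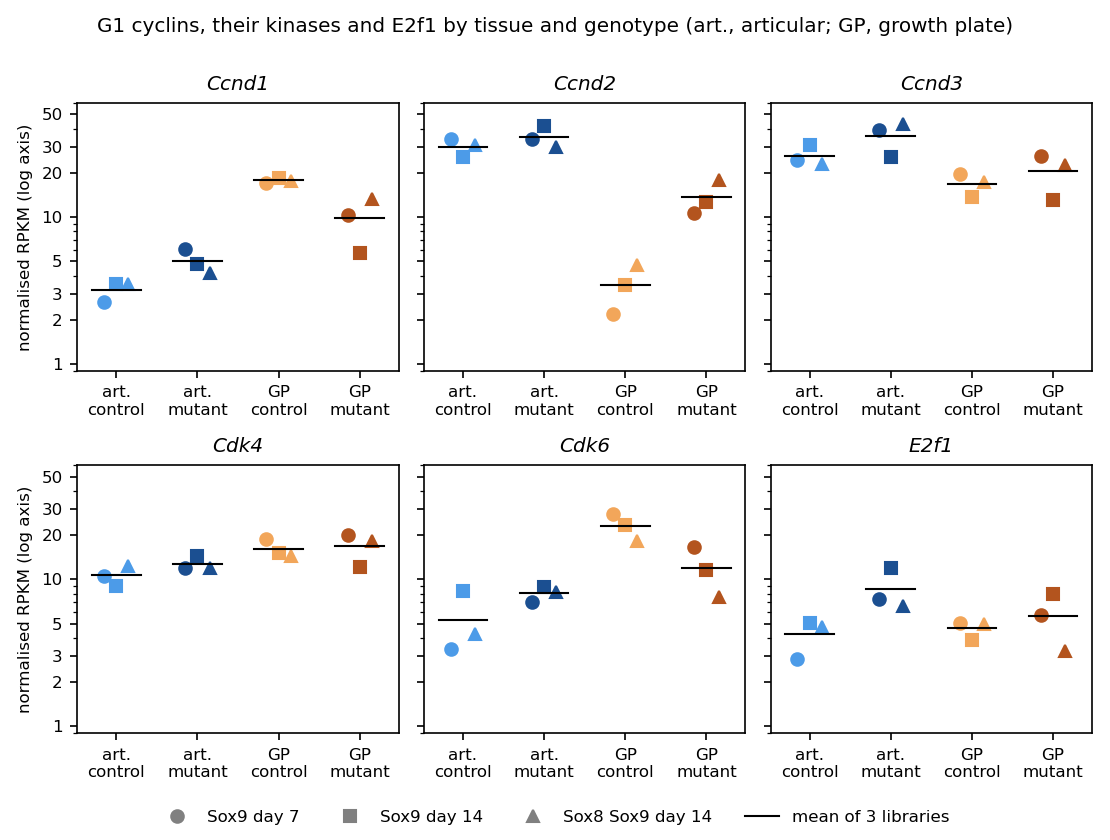
Normalised RPKM on a log axis of Ccnd1, Ccnd2, Ccnd3, Cdk4, Cdk6 and E2f1 in the 4 groups, with 1 point per library, shapes for the 3 sets and a line at the mean of 3 libraries. The means of Ccnd1 and Cdk6 in growth plate mutants lie between those of the articular and growth plate controls, and Ccnd2 rises from 2.21 to 4.72 in growth plate controls to 10.6 to 18.0 in growth plate mutants.

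Among the mitotic entry genes, Ccnb2, which encodes cyclin B2 (chromosome 9, 70407692 to 70421547), was 1.0, 1.82 and 1.37 in articular controls. In growth plate controls it was 7.78, 4.05 and 5.23. All 3 growth plate values were above the articular ones, with a log2 difference of 1.46 ± 0.29 (limma, Benjamini-Hochberg adjusted p = 0.013).

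Plk1, a kinase of mitotic entry and spindle assembly (chromosome 7, 122159439 to 122169873), was 1.0, 1.82 and 1.0 in articular controls and 6.67, 3.67 and 2.94 in growth plate controls. The difference was 1.21 ± 0.27 (limma, Benjamini-Hochberg adjusted p = 0.0193). No fold of means is given for either gene, since articular libraries lay at the lowest listed value. Neither call held without the Sox9 day 7 control pair, where the differences were 1.12 for Ccnb2 and 0.85 for Plk1, or without the Sox8 Sox9 control pair.

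Bub1b, a kinase of the spindle checkpoint (chromosome 2, 118598211 to 118641591), was 1.0, 3.69 and 1.0 in articular and 8.83, 4.02 and 4.22 in growth plate controls. The groups did not overlap and the difference of 1.26 ± 0.38 was not called (limma, Benjamini-Hochberg adjusted p = 0.0667). Ube2c, the ubiquitin-conjugating enzyme of the anaphase-promoting complex (chromosome 2, 164769898 to 164778822), did not follow these genes. It was 1.0, 14.4 and 15.7 in articular controls and 7.28, 2.67 and 10.4 in growth plate controls, a difference of −0.19 ± 0.65 (limma, Benjamini-Hochberg adjusted p = 0.922).

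Of the spindle and chromosome genes, 0 of 13 were called between control tissues, with a median difference of 0.97. Mki67, which encodes the proliferation antigen Ki-67 (chromosome 7, 135689784 to 135716361), was 1.48, 19.8 and 7.96 in articular and 25.2, 8.47 and 18.6 in growth plate controls. The groups overlapped, because the Sox9 day 14 set ran in the opposite direction to the other two. Hmgb2, a chromatin protein of dividing cells (chromosome 8, 57511907 to 57515999), had the same crossing, at 9.49, 40.1 and 12.4 against 47.2, 22.3 and 15.9. Stmn1, which encodes the microtubule-destabilising protein stathmin (chromosome 4, 134468320 to 134473843), was 1.12, 12.1 and 3.06 against 14.5, 6.66 and 9.90.

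Without the Sox9 day 14 control pair, 16 genes were called higher and 1 lower, of 42, while 7.18% to 7.23% of all genes were called. The 12 genes added were Bub1b, Cdc20, Cenpf, Kif11, Kif20a, Kif23, Mki67, Prc1, Rrm2, Stmn1, Top2a and Tpx2, of which 11 act in mitosis and Rrm2 in nucleotide supply. They were named after their values were seen. Without the Sox9 day 7 or the Sox8 Sox9 pair, 3 genes were called each time. In the full set, 11 of the 42 genes had growth plate controls wholly above articular controls (9.31% of all genes) and 3 wholly below (19.0% of all genes).

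Of the replication genes, 0 of 10 were called between control tissues, with a median difference of 0.23. Mcm6, a subunit of the MCM helicase (chromosome 1, 128331590 to 128359664), was 21.7, 12.9 and 7.58 in articular and 14, 4.51 and 3.56 in growth plate controls, lower in growth plate in each of the 3 pairs. Its difference was −0.95 ± 0.28 (limma, Benjamini-Hochberg adjusted p = 0.0646), and it was called in 3 of 21 alternative analyses. Tyms, which encodes thymidylate synthase (chromosome 5, 30058202 to 30073617), was 9.66, 6.74 and 6.76 against 4.51, 5.44 and 6.55. Rrm1, the large subunit of ribonucleotide reductase (chromosome 7, 102441695 to 102469771), was 5.78, 9.06 and 4.87 against 11.3, 7.41 and 5.01. Of these genes, only Tyms had groups that did not overlap.

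Markers of other cell types also differed between the control tissues. Neutrophil and granulocyte precursor markers (14 of 15 listed present) summed to 115, 1191 and 340 in articular controls and to 61.6, 41.6 and 63.3 in growth plate controls. Among them Prtn3 and Ctsg, which encode granule proteases, were at the lowest listed value in all 3 growth plate controls, and Mpo, which encodes myeloperoxidase, was 1.0, 2.73 and 1.0 there. These 3 markers were named after their values were seen. Of the 14 neutrophil and granulocyte precursor markers, 8, 7 and 6 were at the lowest listed value in the growth plate controls, and the rest were above it. The mitotic entry genes summed to 59.5, 27.2 and 39.7 in the same libraries. Macrophage and osteoclast markers (13 of 14 present) summed to 104 to 578 in articular and 1142 to 1524 in growth plate controls. Of these 13, 8 were called higher in growth plate (4.26% of all genes) and 2, C1qa and Lyz2, lower (8.63% of all genes). Osteoblast markers (11 of 11) summed to 3137 to 5665 in articular and 7714 to 15374 in growth plate controls. Endothelial markers (10 of 10) summed to 28.2 to 62.4 and 59.1 to 78.9. Erythroid markers (9 of 14) summed to 126 to 485 in articular controls and to 250, 108 and 70.2 in growth plate controls. B lineage markers (9 of 16) summed to 102 to 327 and to 187, 79.9 and 79.7. Both sums were highest, among growth plate controls, in the Sox9 day 7 library, as that of the mitotic entry genes was. Of the 9 B lineage markers, 6, 5 and 5 were at the lowest listed value in these controls. For erythroid markers 3, 5 and 5 of 9 were at it. Progenitor markers (7 of 9) summed to 10.7 to 28.8 and 12.4 to 18.1. The part of these cells in the tissue differences was not tested.

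**Figure D3:**
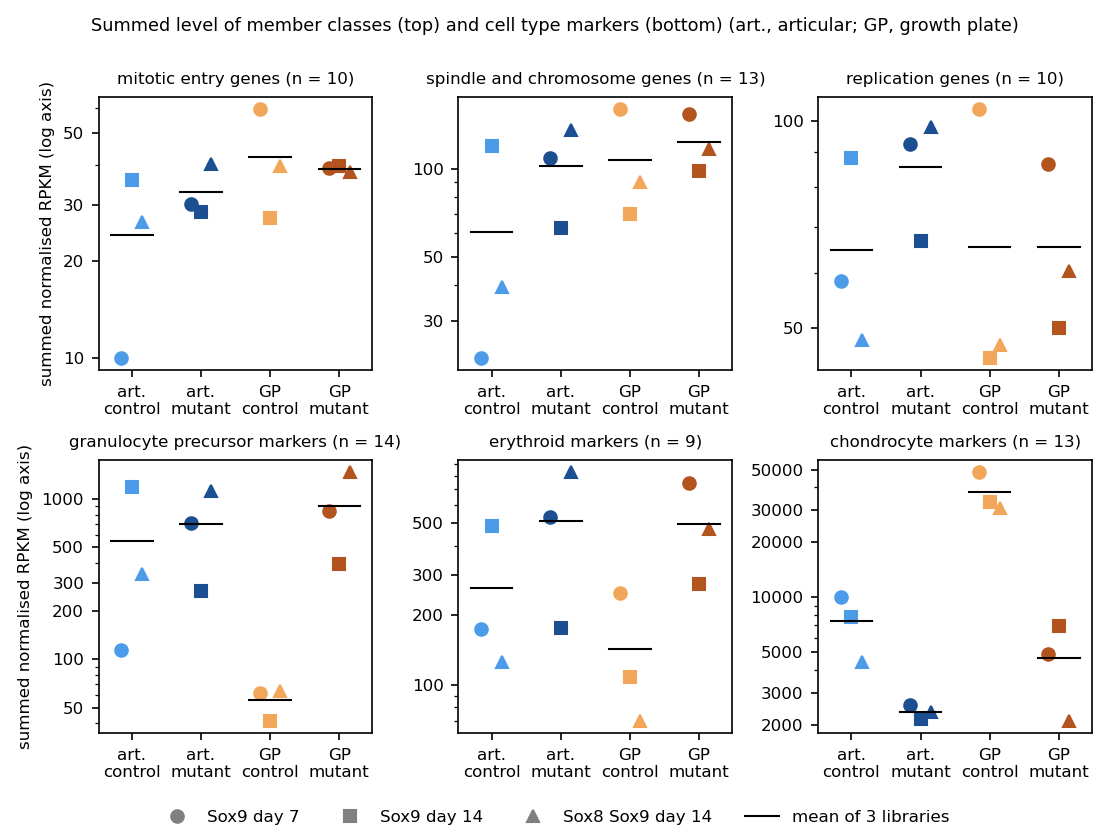
Summed normalised RPKM, on log axes that differ between panels, of the mitotic entry, spindle and replication genes (top) and of 3 cell type marker lists (bottom) in the 4 groups, with 1 point per library and a line at the mean of 3. Neutrophil and granulocyte precursor markers (panel titled granulocyte precursor markers) sum to between 41.6 and 63.3 in the 3 growth plate controls. The mitotic entry genes sum to between 27.2 and 59.5 there.

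Sox9 and Sox8 Sox9 mutants were compared with their matched controls within articular cartilage, where the level of Sox9 itself differed by −0.06 ± 0.43 on the log2 scale (limma, Benjamini-Hochberg adjusted p = 0.993). Nearly all cell cycle genes had a positive fitted difference there, and none of the 42 was called, against 0.353% of all genes. At an unadjusted p under 0.05, 6 of the 42 passed (Ccnb2, Plk1, Cenpf, Tpx2, Tyms and E2f1), against 1805 of all 14712 genes. The lowest Benjamini-Hochberg adjusted p of limma among the 42 was 0.202. The median difference was 0.51 against 0.13 over all genes, and 40 of 42 lay above 0 (95.2% against 69.6% of all genes). Without the Sox9 day 7 control the median was 0.15 and 33 of 42 lay above 0, and without the Sox9 day 14 control they were 0.90 and 41 of 42. Mutants lay wholly above controls for 7 of the 42 genes (11.4% of all genes): E2f1, Aurka, Cenpa, Rrm1, Plk1, Ccnd1 and Ccnb2.

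The pairs disagreed in direction. For the 13 spindle and chromosome genes, the summed level was 22.5, 120.0 and 39.3 in articular controls and 109, 62.6 and 136 in mutants. That is a log2 ratio of 2.28 at Sox9 day 7, −0.94 at Sox9 day 14 and 1.79 in the pair labelled Sox8 Sox9, with a mean of 1.05 ± 1.74 (SD, n = 3 pairs). The mitotic entry genes gave 1.59, −0.33 and 0.60, and the replication genes 0.66, −0.40 and 1.03. The mean ratio of each of these 3 classes was smaller than its SD over the pairs. In the Sox9 day 7 control, 10 of 10 mitotic entry genes and 9 of 13 spindle and chromosome genes lay at the lowest listed value. In the Sox8 Sox9 control, 6 of 10 and 1 of 13 did. The mitotic entry and spindle ratios of these pairs therefore depend on that value.

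Mki67 had the highest fitted difference of the 42 genes. Its articular mutants were 24.2, 10.0 and 41.1 against controls of 1.48, 19.8 and 7.96, which overlap, and the difference was 1.55 ± 0.76 (limma, Benjamini-Hochberg adjusted p = 0.457). Ccnb2 was 4.43, 2.0 and 6.33 in mutants, each above all 3 controls, a difference of 1.05 ± 0.30 (limma, Benjamini-Hochberg adjusted p = 0.202). Plk1 was 4.83, 1.95 and 4.05, also above all controls, with 0.98 ± 0.29 (limma, Benjamini-Hochberg adjusted p = 0.215).

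Bub1b was 2.90, 2.76 and 4.77 in articular mutants and Ube2c was 3.55, 13.9 and 5.82. Both overlapped their controls. Hmgb2 was 38.2, 22.0 and 32.7 and Stmn1 5.28, 5.40 and 8.30, again within the wide range of the controls. Among the replication genes, Tyms was 22.8, 9.61 and 13.6, higher than its matched control in each pair but not above all controls, with 0.84 ± 0.25 (limma, Benjamini-Hochberg adjusted p = 0.212). Rrm1 was 10.6, 9.22 and 10.1, just above its highest control of 9.06. Mcm6 was 8.74, 13.8 and 11.4 and had the lowest difference of the 42, −0.20 ± 0.35.

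The summed G1 genes moved the same way in the 3 pairs. Their summed level was 83.2, 90.5 and 83.9 in articular controls and 114, 115 and 112 in mutants, a log2 ratio of 0.45, 0.35 and 0.42 (0.41 ± 0.05 SD, n = 3 pairs). After scaling each library to its median ratio the mean ratio was 0.25. E2f1, the transcription factor that D-type cyclin activity releases (chromosome 2, 154559407 to 154569892), was 2.86, 5.01 and 4.77 in controls and 7.36, 12 and 6.56 in mutants. All mutants were above all controls, with 0.87 ± 0.28 (limma, Benjamini-Hochberg adjusted p = 0.241). It was named after its values were seen.

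Ccnd1 was 6.12, 4.83 and 4.14 in articular mutants, above all 3 controls, with 0.51 ± 0.26 (limma, Benjamini-Hochberg adjusted p = 0.458). Ccnd2 was 34.1, 41.9 and 29.8, within reach of its controls at 0.22 ± 0.24. Ccnd3 was 39.0, 25.8 and 43.0, Cdk4 11.9, 14.4 and 12, and Cdk6 6.97, 8.85 and 8.24, and each of these overlapped its controls.

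Some marrow cell markers had the same signs as the mitotic genes from pair to pair in articular cartilage, and others did not. The median log2 ratio of mutant to control was 2.01, −1.44 and 1.72 for neutrophil and granulocyte precursor markers and 1.47, −0.91 and 2.11 for erythroid markers. For B lineage markers it was 0.15, −1.14 and 1.31. For the spindle and chromosome genes it was 1.42, −0.64 and 1.29, positive and negative in the same pairs. Progenitor markers, at 0.92, 0.18 and 0.66, macrophage and osteoclast markers, at 1.62, 0.72 and −0.63, and endothelial markers, at 0.71, 0.31 and −0.54, had other signs, as did osteoblast markers, at 0.79, −0.07 and −0.19. Neutrophil and granulocyte precursor markers summed to 705, 267 and 1114 in articular mutants and erythroid markers to 532, 176 and 832. Sums in articular controls and mutants were 104 to 578 and 388 to 429 for macrophage and osteoclast markers, 102 to 327 and 126 to 754 for B lineage markers, and 10.7 to 28.8 and 29.6 to 44.4 for progenitor markers. For endothelial markers they were 28.2 to 62.4 and 33.8 to 51.5, and for osteoblast markers 3137 to 5665 and 5507 to 7024. Mpo was 1.0, 120.0 and 5.99 in articular controls and 32.7, 37.9 and 75.7 in mutants. The part of marrow cells in the articular values was not tested.

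**Figure D4:**
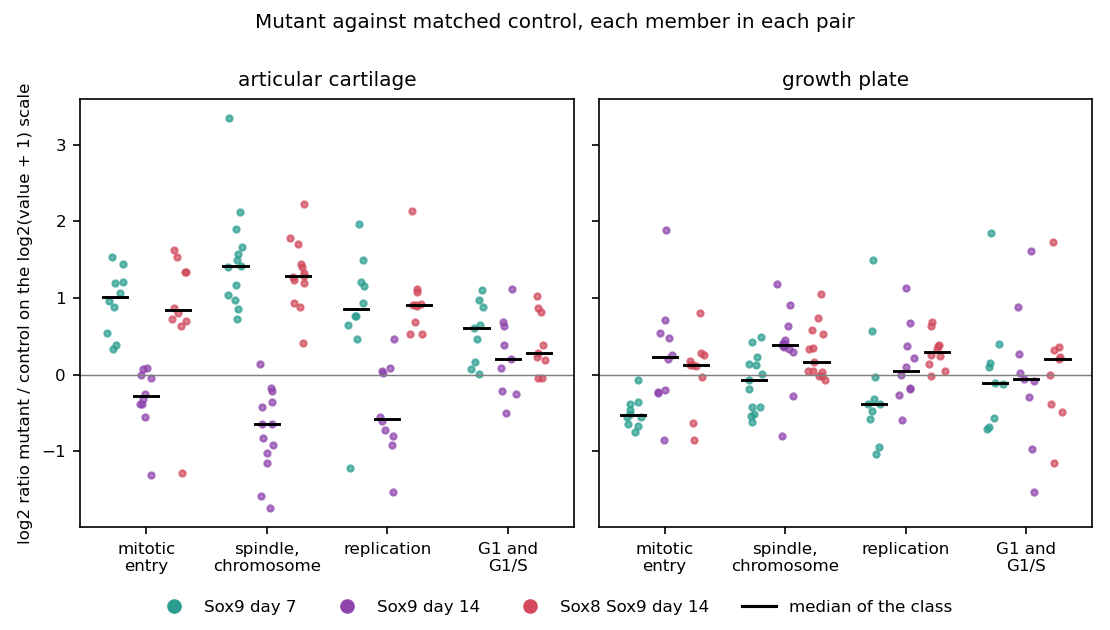
Log2 ratio of mutant to matched control on the log2(value + 1) scale for each of the 42 genes (points) by class, in articular cartilage (left) and growth plate (right), with colours for the 3 pairs and a line at the median of the class in a pair. In articular cartilage the Sox9 day 14 medians of the mitotic entry, spindle and replication genes lie below 0 and those of the other pairs above it; in growth plate the medians lie between −0.53 and 0.38.

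In growth plate, Ccnd2 rose in the mutants, and no mitotic or replication gene was called. With limma, 1 of the 42 genes, Ccnd2, rose (7.92% of all genes were called higher) and 0 fell (2.82% of all genes). Of the 42, 5 passed an unadjusted p of 0.05 (Cdc20, Tyms, Ccnd1, Ccnd2 and Cdk6), against 3980 of all 14712 genes. Mutants lay wholly above controls for 2 of the 42 genes, Tyms and Ccnd2 (19.0% of all genes). They lay wholly below for 2, Cdk6 and Ccnd1 (4.96% of all genes). The median difference was 0.04 against 0.20 over all genes. Scaling each library to its median ratio removed most of the shift of all genes, and the median of the 42 genes was then −0.14, with 12 of 42 above 0 against 24 as deposited. It also moved with single libraries: without the Sox9 day 7 control the median was 0.31 with 37 of 42 above 0, and without the Sox9 day 14 control it was −0.13 with 12 of 42. The group as a whole thus had no stable direction in growth plate.

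Ccnd2 was 10.6, 12.7 and 18.0 in growth plate mutants, against 2.21, 3.45 and 4.72 in the controls. It was higher in each of the 3 pairs, by log2 ratios of 1.85, 1.62 and 1.73. The rise was 1.74 ± 0.24 (limma, Benjamini-Hochberg adjusted p = 0.00301), a 3.97-fold ratio of means. It left the mutants below all 6 articular libraries. The rise was called in 20 of the 21 alternative analyses, the exception being the fit of the 6 growth plate libraries alone (limma, Benjamini-Hochberg adjusted p = 0.119), in which 0 of all 14712 genes were called.

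Ccnd1 was 10.4, 5.70 and 13.4 in growth plate mutants, each below all 3 controls, whose lowest was 17.2. The difference was −0.87 ± 0.26 and was not called (limma, Benjamini-Hochberg adjusted p = 0.0568). After scaling to the median ratio it was −1.08 and called (limma, Benjamini-Hochberg adjusted p = 0.014), and over all alternatives the adjusted p ran from 0.014 to 0.246.

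Cdk6 was 16.7, 11.5 and 7.61 in growth plate mutants, also below all controls, with −0.94 ± 0.29 (limma, Benjamini-Hochberg adjusted p = 0.0632). After scaling to the median ratio it was −1.15 and called (limma, Benjamini-Hochberg adjusted p = 0.0373), and over all alternatives the adjusted p ran from 0.0358 to 0.295. For both genes the mutants lay between the articular and the growth plate controls in mean level. The mean of Ccnd1 was 9.83 ± 3.89 and that of Cdk6 12 ± 4.57 (SD, n = 3 libraries).

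Ccnd3 was 26.2, 13 and 22.6 and Cdk4 was 20.1, 12.1 and 18.2 in growth plate mutants, and both overlapped their controls. E2f1 was 5.68, 7.92 and 3.26, around its controls of 5.04, 3.86 and 4.99. Of the remaining G1 genes, Cdk2 and Ccne2 had differences of 0.05 and −0.14, and Ccne1, the cyclin E1 gene, did not exceed 3.07 in any library.

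Among mitotic entry genes, Ccnb2 was 4.64, 5.01 and 6.58 in growth plate mutants and Plk1 was 4.56, 2.96 and 3.68, each within the range of its controls. Bub1b was 6.54, 4.78 and 4.64 and Ube2c 4.60, 12.6 and 6.40. Cdc20, the activator of the anaphase-promoting complex, was 3.49, 1.0 and 2.46 against controls of 6.54, 2.60 and 5.24. It was lower in each pair by 0.75 to 0.85 in log2 ratio, yet the groups overlapped and the difference of −0.82 ± 0.33 was not called (limma, Benjamini-Hochberg adjusted p = 0.144). Cdc20 was named after its values were seen.

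Mki67 was 34.4, 16.8 and 27.3 in growth plate mutants, Hmgb2 41.3, 27.5 and 24.2, and Stmn1 16.1, 8.98 and 10.2. The differences were 0.63 ± 0.76, 0.23 ± 0.51 and 0.19 ± 0.58. Of the replication genes, Mcm6 was 9.85, 6.13 and 4.02 and Rrm1 8.91, 4.56 and 8.68, both overlapping their controls. Tyms was 14.5, 9.24 and 8.86, above all 3 controls, with 0.85 ± 0.25 (limma, Benjamini-Hochberg adjusted p = 0.0548). It was called higher when only genes with a mean of at least 5 were tested (limma, Benjamini-Hochberg adjusted p = 0.0449), and in no other of the 21 alternative analyses.

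The summed mitotic entry level was 39.0, 39.5 and 38.0 in growth plate mutants, and the spindle level was 154, 98.2 and 117 against 160.0, 70.2 and 90.2 in controls. The log2 ratio of the mitotic entry sums was −0.61, 0.54 and −0.06, a mean of −0.04 ± 0.58 (SD, n = 3 pairs). In the same libraries, neutrophil and granulocyte precursor markers summed to 843, 393 and 1471 and macrophage and osteoclast markers to 1512 to 4041. Of the macrophage and osteoclast markers, Mrc1, C1qb, C1qa and Lyz2 were called higher than in controls and 0 lower. That is 4 of 13, against 7.92% of all genes called higher. Called higher were also 8 of 14 neutrophil and granulocyte precursor, 4 of 11 osteoblast, 2 of 7 progenitor and 2 of 10 endothelial markers. So were 2 of 9 B lineage and 1 of 9 erythroid markers. Called lower were 12 of 13 chondrocyte and 1 of 11 osteoblast markers, against 2.82% of all genes. Erythroid markers summed to 274 to 745, B lineage markers to 171 to 236, progenitor markers to 28.1 to 46.9, endothelial markers to 76.9 to 122 and osteoblast markers to 23444 to 28572. Chondrocyte markers were lower there, as given above, and the part of this change in cell types in the levels of the cyclins was not tested.

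Between the mutant tissues, 2 genes were called lower in growth plate than in articular cartilage, Ccnd2 and Ccnd3 (5.91% of all genes), and 0 higher (4.3% of all genes). Ccnd2 fell by 1.32 ± 0.26 on the log2 scale from articular to growth plate mutants (limma, Benjamini-Hochberg adjusted p = 0.0131), with no overlap. The call was lost without the Sox9 day 7 mutant pair and without the Sox9 day 14 mutant pair (limma, Benjamini-Hochberg adjusted p up to 0.109). Ccnd3 fell by 0.80 ± 0.20 (limma, Benjamini-Hochberg adjusted p = 0.0397), was lower in each pair though the groups overlapped, and was called in 7 of 21 alternative analyses. The remaining difference of Ccnd1 was 0.79 ± 0.24 (limma, Benjamini-Hochberg adjusted p = 0.0819), called in 2 of 21 alternative analyses, and that of Cdk6 was 0.47 ± 0.30. The median of the 42 genes was 0.16 against −0.05 over all genes. Growth plate mutants lay wholly below articular mutants for 3 of the 42 genes (12.6% of all genes) and wholly above for 4 (8.67% of all genes).

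The difference of the mutant effect between tissues, growth plate minus articular, was tested as an interaction, and 0 of the 42 genes were called (0.184% of all genes). At an unadjusted p under 0.05, 6 of the 42 passed (Ccnb2, Plk1, Cdc20, Ccnd1, Ccnd2 and Cdk6), against 1580 of all 14712 genes. Ccnd2 had 1.52 ± 0.36, Ccnd1 −1.38 ± 0.34 and Cdk6 −1.53 ± 0.42, with limma, Benjamini-Hochberg adjusted p of 0.167, 0.176 and 0.221. Ccnd1 and Cdk6 were the 2 of the 42 genes that were higher in the mutant in every articular pair and lower in every growth plate pair, a pattern shown by 1.24% of all genes. The rise of Ccnd2 in growth plate is thus not shown to differ from its articular change of 0.22 ± 0.24. The median of the 42 genes was −0.51 against 0.06 over all genes, and it was 0.04 without the Sox9 day 7 control pair and −1.0 without the Sox9 day 14 control pair.

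Genes that act beside these, listed by function, were mostly not called. Of genes for origin licensing, origin firing and the replication fork, 27 of 31 were present. Between control tissues 0 were called higher in growth plate (4.26% of all genes) and 2 of 27 lower (8.63% of all genes). The 2 were Rpa1, a subunit of the single-strand DNA binding protein RPA (−1.02), and Gins4, a helicase cofactor (−0.86). Rpa1 was also lower between mutants (−0.80), 1 of 27 against 5.91% of all genes. For the mutant effect 0 were called in articular cartilage (0.353% of all genes) and 0 in growth plate (10.7% of all genes).

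Of the RB, E2F, DREAM and FoxM1 regulators, 16 of 19 were present. In growth plate mutants 2 rose and 0 fell, that is 2 of 16 against 7.92% of all genes called higher. Rbl2, which encodes the retinoblastoma relative p130 of the DREAM repressor, was 5.93, 9.27 and 7.08 in controls and 13.6, 13.1 and 12.9 in mutants, a rise of 0.77 ± 0.17 (limma, Benjamini-Hochberg adjusted p = 0.018). Rb1, the retinoblastoma gene, was 3.01, 3.63 and 5.31 in controls and 7.05, 5.31 and 10.1 in mutants, a rise of 0.76 ± 0.19 (limma, Benjamini-Hochberg adjusted p = 0.032). Rbl2 mutants lay above all controls, while those of Rb1 met the highest control. Between control tissues, Rbl2 (−1.07) and Lin52, a subunit of DREAM and its MYB-bound form (−0.93), were lower in growth plate, and 0 were higher. That is 2 of 16 lower against 8.63% of all genes, and 0 higher against 4.26%. Lin52 was also lower between mutants, 1 of 16 against 5.91% of all genes.

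Of the other mitotic genes, 38 of 50 were present, and 0 were called for either mutant effect. Of all genes, 0.353% were called for the articular and 10.7% for the growth plate mutant effect. Between control tissues Smc4, a condensin subunit, was higher in growth plate (0.76), and Wee1, the kinase that restrains Cdk1 (−0.94), and Pttg1, the securin gene (−0.77), were lower. That is 1 of 38 higher against 4.26% of all genes, and 2 of 38 lower against 8.63%. Wee1 was also lower between mutants, 1 of 38 against 5.91% of all genes. Of the CDK inhibitors, 7 of 7 were present. Cdkn1c, which encodes p57, was 126, 106 and 159 in growth plate controls and 9.22, 10.1 and 9.69 in growth plate mutants. The fall was 3.60 ± 0.18 in log2 (limma, Benjamini-Hochberg adjusted p = 1.71e-05). It was the 1 of 7 inhibitors called there, against 2.82% of all genes called lower. Cdkn1c was also the 1 of 7 called lower for the difference of the mutant effect, growth plate minus articular (0.136% of all genes). In the other lists of this kind 0 genes were called for that difference. In the controls Cdkn1c (3.06) and Cdkn2c, which encodes p18 (1.24), were higher and Cdkn1b, which encodes p27 (−0.77), lower in growth plate. These are 2 of 7 higher and 1 of 7 lower, against 4.26% and 8.63% of all genes. In articular cartilage 0 genes of these 4 lists were called for the mutant effect (0.353% of all genes).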

How the data were processed

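RNA of 12 laser-captured mouse cartilage regions was sequenced from a stranded low-input total RNA kit, per the labels' protocols. The authors deposited 1 table in RPKM with a further normalisation, named NRPKM per the file headers; its method, the aligner, the counting and its use of strand are not stated in the labels or headers. Per the submitters' processing notes, the genome build was mm10. Values under 1 appear set to 1. Depth is unknown, so no counting interval is given, and the planned count tests did not apply.

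From these values, log2(value + 1) was fitted with limma 3.58.1 (R 4.3.3, statmod 1.5.0; robust empirical Bayes, mean trend) over all 12 libraries, with Benjamini-Hochberg adjustment over 14712 genes. Mutant effects used the set as a block with 4 cells of tissue by Cre; tissue comparisons and the interaction used 6 blocks of genotype and day. The fits were tested on simulated data. Gene coordinates came from GENCODE M21 by gene identifier. Promoters were matched by symbol.

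The 46 genes, the lists of neighbouring pathway genes and the cell type markers were chosen with earlier results of these data known. Genes were named by a rule: those called in any comparison, and the 3 with the highest mean in each class, with up to 4 called genes per neighbouring list; others are said to be named after their values were seen. Alternatives were 2 other added values (0.1 and 5), quantile normalisation, median ratio scaling, a mean of at least 5, other blocks, fits of the Sox9 sets alone or of only the 6 libraries compared, and leave-one-out fits.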

Additional observations from a re-analysis of the deposited data

Results flagged for a closer look

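For Ccnd1 and Cdk6 the mutant was higher than its control in all 3 articular pairs and lower in all 3 growth plate pairs. Ccnd1 had log2 ratios of 0.97, 0.38 and 0.19 in articular cartilage and −0.68, −1.54 and −0.38 in growth plate. Cdk6 had 0.88, 0.08 and 0.82 in articular cartilage and −0.71, −0.97 and −1.15 in growth plate. The difference of the mutant effects, growth plate minus articular, was −1.38 for Ccnd1 and −1.53 for Cdk6. Neither passed the interaction test (limma, Benjamini-Hochberg adjusted p = 0.176 and 0.221). The same pattern of pairs was shown by 182 of 14712 genes (1.24%), and by 2 of the 42 cell cycle genes.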

How the results depend on the processing

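The count of cell cycle genes called moved with the processing where it was above 0. For the growth plate mutant effect it was 1 as reported and 3 with an added value of 5, after quantile normalisation, after median ratio scaling and at a mean of at least 5, where 23 genes were tested. It was 2 with a block for each matched pair and 0 with the 6 growth plate libraries alone, and 1 to 2 when 1 library was left out. For the control tissues it was 5 as reported, 3 in the Sox9 sets alone, 2 with the 6 control libraries alone, 7 without a block and with the set block, 4 to 6 under other added values, scalings and the mean filter, and 3 to 17 when 1 library was left out. Leaving out a control library also left its partner of the other tissue without a contrast, and 17 were called without either Sox9 day 14 control. For the mutant tissues it was 2 as reported, 1 without a block, with the set block and in the Sox9 sets alone, 0 with the 6 mutant libraries alone and 0 to 2 when 1 library was left out. The causes were not tested. The articular mutant effect and the interaction gave 0 called genes under every alternative run; the latter has no fit of 6 libraries alone. No direction of a called gene reversed. The summed G1 genes had a mean log2 ratio of 0.25 in articular and −0.30 in growth plate mutants after median ratio scaling, against 0.41 and −0.07, and −0.06 between mutant tissues when the median gene of each pair was averaged over the pairs, against −0.40 by their sum; the median of their fitted differences was 0.08. Ccnb2 and Plk1 have a mean under 5 and so no value under that filter. No paired analysis was possible by replicate number because the labels number no replicates; the block for each matched pair stands in for it.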
